A study of Mus musculus with 6 samples.

Results

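The genes described here form the core of the stress response that the transcription factors ATF4 and CHOP run. They were chosen by name: Atf4, its relative Atf5, Ddit3 (which encodes CHOP) and the targets and regulators Trib3, Nupr1, Chac1, Sesn2, Asns, Psat1 and Phgdh. Earlier results of these data were known when this choice was made. All 10 were found among the 21033 gene symbols of the count table, and all 10 passed the filter on low counts. Transporters and tRNA synthetases, which ATF4 also controls, were left out of the core and are summarised only for comparison.

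The study measured RNA in synovial fibroblasts, mesenchymal cells of the joint lining and of the tissue below. They were primary cells from the ankle joint of hTNFtg mice, whose transgene is human TNF, and had gone through 3 passages in culture. One group of 3 libraries came from cells given the vehicle DMSO for 48 h and the other group of 3 from cells given 10 µM compound 33 for 48 h. Both groups therefore carry the transgene, and every difference below is between treated and vehicle-treated cells of that genotype. The age and sex of the mice are not in the labels, nor is it said whether replicates are separate mice or cultures, so the spread behind each p-value may be technical.

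The libraries held 1594052 to 2897207 reads, of which 3675 to 7207 fell in the 10 core genes, and a single core gene had 60 to 2678 reads in a library. Each read marks the 3′ end of a transcript, so a level is its counts per 1000000 reads (CPM), without a correction for gene length. All 8 listed markers of synovial fibroblasts were present in every library, with summed levels of 11868 to 13462 CPM under DMSO and 10615 to 12611 CPM under compound 33. Of these 8, 2 had a positive log2 fold change, beside 48.9% of all genes. Thy1 had 851, 871 and 574 CPM under DMSO and 427, 525 and 507 CPM under compound 33. Its log2 fold change was -0.65 (SE 0.23), with an unadjusted p of 0.0128 and an adjusted p of 0.605 in edgeR's quasi-likelihood test. Of 26 markers of macrophages, endothelium, cartilage, muscle and pericytes, the endothelial genes Pecam1 and Tie1 and the cartilage gene Acan had 0 reads in all libraries, where a count of 0 allows up to 3 reads, or 1.04 to 1.83 CPM, per library. The summed endothelial markers were 2.09 to 3.16 CPM under DMSO and 4.63 to 9.54 CPM under compound 33, where Tek had 4, 1 and 3 reads under DMSO and 7, 17 and 4 under compound 33. The macrophage markers summed to 42.0 to 116 CPM under DMSO and 38.6 to 80.3 CPM under compound 33, the cartilage markers to 78.5 to 163 and 112 to 156 CPM, the muscle markers to 24.7 to 40.3 and 20.1 to 36.1 CPM, and the pericyte markers to 32.3 to 75.9 and 30.7 to 72.6 CPM. A few genes made up most of these sums. They were Lyz2 for macrophages (75 to 300 reads per library), and Sox9 (112 to 352) and Comp (21 to 105) for cartilage. Acta1 (34 to 75) did so for muscle and Mcam (47 to 172) for pericytes. The part of these cells in the results was not tested, and in a bulk sample fewer cells of a type cannot be told apart from less RNA per cell.

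When unfolded proteins gather in the endoplasmic reticulum, or amino acids or heme run short, kinases phosphorylate the translation factor eIF2α. General translation then falls while the Atf4 mRNA is translated more, so that much of ATF4's control lies beyond what an mRNA level shows. ATF4 switches on genes of amino acid supply and redox balance, and it induces Ddit3, whose product CHOP acts with ATF4 and is known for its link to cell death when stress persists. The comparison of compound 33 with DMSO bears on this pathway because the series title names Hyou1, a chaperone of the endoplasmic reticulum, as the target of the molecule.

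With compound 33, 9 of the 10 core genes had a mean level above that with DMSO, but no difference was large against the spread between libraries once all genes were considered. The largest was that of Ddit3, at 1.64-fold, followed by Atf5 at 1.43-fold, and the smallest was that of Sesn2, at 0.978-fold. No core gene passed edgeR's quasi-likelihood test at an adjusted p under 0.05, the adjusted p ranging from 0.599 to 0.989, and 0 passed in DESeq2 or limma-voom. The background was as low, with 0.0296% of 10124 genes passing in edgeR, 0.179% of 10063 genes in DESeq2 and 0.0198% of 10124 genes in limma-voom. At an unadjusted p under 0.05, 1 core gene (Ddit3) was higher and 0 were lower in edgeR, beside 3.64% of all genes higher and 3.23% lower.

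The core genes were chosen with earlier results of these data known, so their contrasts with all genes are no independent support. The median log2 fold change of the core genes was 0.27, beside -0.01 over all genes tested, whose quartiles were -0.22 and 0.21. A positive log2 fold change was found for 9 of 10 core genes and for 48.9% of all genes. In 3 core genes, Atf5, Ddit3 and Asns, all compound 33 libraries lay above all DMSO libraries, where 6.64% of all genes did so, and in 0 core genes did they all lie below, where 6.73% of all genes did so. Leaving out DMSO replicate 2 gave a median of 0.15, and leaving out DMSO replicate 1 gave 0.39. For 8 of the 10 genes the upper end of the 95% interval lay under a 2-fold increase, the exceptions being Atf5 (2.07-fold) and Ddit3 (2.36-fold).

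**Figure D1:**
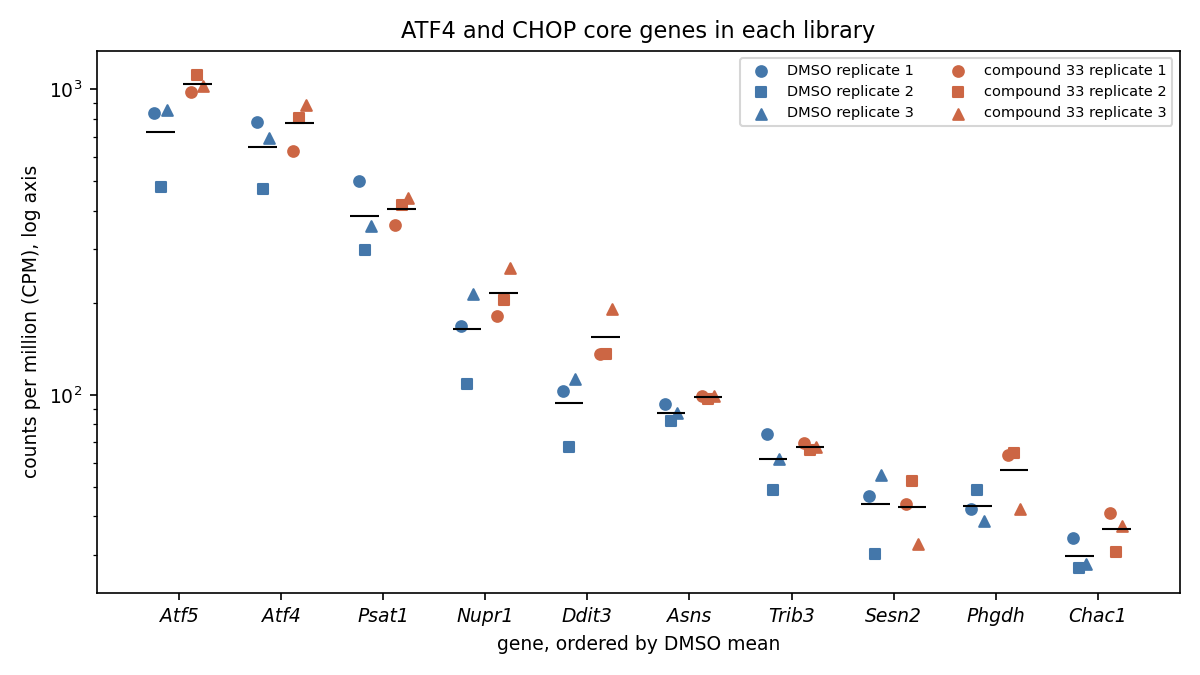
Level of each core gene in each library, in CPM on a log axis, with DMSO in blue, compound 33 in orange, marker shape for the replicate number and a black line for the group mean. Genes are ordered by their DMSO mean, and the squares of DMSO replicate 2 lie lowest for 9 of the 10 genes.

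Atf4, the central factor, had 781, 470.0 and 691 CPM in DMSO replicates 1, 2 and 3 and 627, 808 and 885 CPM in compound 33 replicates 1, 2 and 3. The groups overlapped: compound 33 replicate 1 lay below 2 of the 3 DMSO libraries. The means were 647 ± 159.8 CPM with DMSO and 774 ± 132 CPM with compound 33 (SD, n = 3 each), a log2 fold change of 0.26 (SE 0.24, 95% interval -0.26 to 0.78), with an edgeR adjusted p of 0.898. The log2 fold change was 0.08 without DMSO replicate 2, 0.16 without compound 33 replicate 3, 0.39 without compound 33 replicate 1 and 0.42 without DMSO replicate 1. On mm10 the gene covers chr15:80255184-80257541 (plus strand), and its exons overlap no other annotated gene.

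Atf5, a related factor with a leucine zipper that is likewise translated under stress, was the most abundant core gene. Its level was 838, 478 and 857 CPM under DMSO and 981, 1110.2 and 1024 CPM under compound 33, in replicate order. All compound 33 libraries lay above all DMSO libraries, and DMSO replicate 2 lay far below the other DMSO libraries. The log2 fold change was 0.52 (SE 0.25, 95% interval -0.01 to 1.05, edgeR unadjusted p = 0.0551, adjusted p = 0.720). Its value was 0.30 without DMSO replicate 2, with the 2 remaining DMSO libraries still below all compound 33 libraries. Atf5 covers chr7:44812256-44816658 (minus strand). Exons of Il4i1 and Nup62 overlap its exons on the opposite strand, but none lies within its last 500 bases, where reads of this kit gather.

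Ddit3, which encodes CHOP, showed the largest difference of the core. It stood at 103, 67.7 and 112 CPM under DMSO and at 136, 136 and 191 CPM under compound 33. The groups did not overlap, and compound 33 replicate 3 stood above every other library. The means of 94.3 ± 23.6 and 155 ± 31.5 CPM (SD, n = 3 each) gave a log2 fold change of 0.71 (SE 0.25, 95% interval 0.18 to 1.24), with an edgeR unadjusted p of 0.0124 and an adjusted p of 0.599. In the authors' deposited table the log2 fold change of Ddit3 is 0.71 (SE 0.27), with a p of 0.00852 and an adjusted p of 0.557.

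The Ddit3 difference moved with single libraries of both groups. Its log2 fold change was 0.53 without DMSO replicate 2 (edgeR unadjusted p = 0.0507) and 0.54 without compound 33 replicate 3 (unadjusted p = 0.0542), so that it lay just above the unadjusted threshold without either. It was 0.86 without DMSO replicate 3. The annotation holds 2 genes under this symbol on the plus strand, chr10:127290774-127296288 and chr10:127290829-127293753, and the count table has 1 row for them. Exons of Mars, the methionyl-tRNA synthetase, reach into the last 500 bases of the longer one on the opposite strand, and no source used here says whether counting used the strand. The Mars level was 59.4 ± 10.4 CPM under DMSO and 75.7 ± 21.5 CPM under compound 33 (log2 fold change 0.35, edgeR adjusted p = 0.865).

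**Figure D2:**
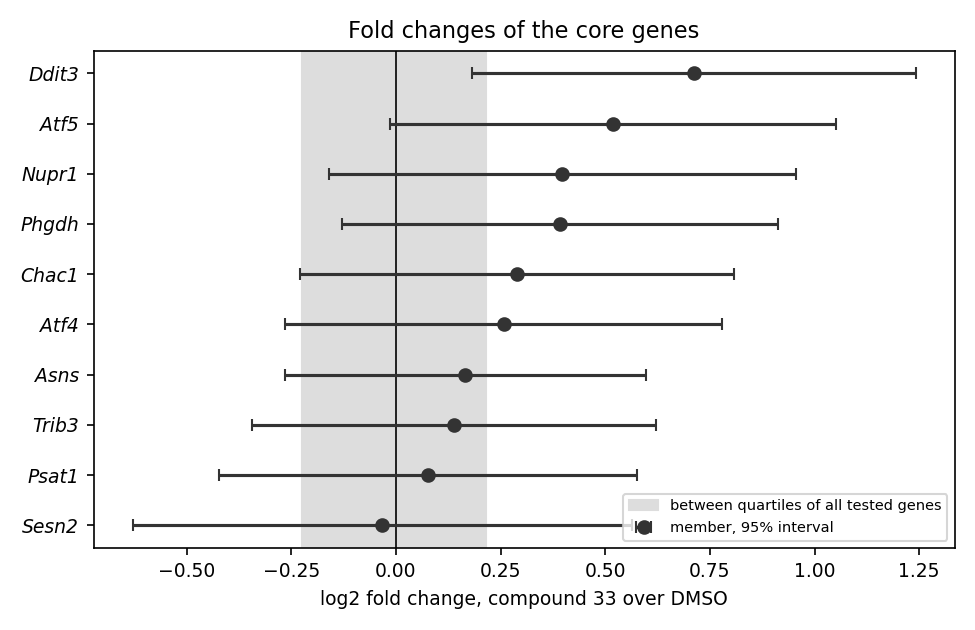
Log2 fold change of compound 33 over DMSO for each core gene, with its 95% interval from edgeR, and in grey the range between the quartiles of all tested genes. The interval of Ddit3 (0.18 to 1.24) is the only one that lies wholly above 0, before any adjustment for the number of genes.

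Ddit3 was also compared with Atf4 inside each library, where the scaling between libraries cancels. This ratio was chosen after the values had been seen. For each 100 Atf4 reads there were 13.2, 14.4 and 16.3 Ddit3 reads under DMSO and 21.7, 16.9 and 21.6 under compound 33. The groups did not overlap, although DMSO replicate 3 and compound 33 replicate 2 were close. The log2 ratio of the groups was 0.45, and the exact two-sided permutation test gave p = 0.10, the smallest that 3 against 3 libraries allow.

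The same ratio was computed for the 9 other core genes, Ddit3 included, and Ddit3 was the only one whose groups did not overlap. With random labels, the groups of any such ratio separate fully with a chance of 0.1. Separation of only Ddit3 among 9 ratios therefore does not set this gene apart. The share of all genes whose ratio to Atf4 separates was not computed. After Benjamini-Hochberg adjustment over the 9 exact permutation tests, the lowest p was 0.75. Atf5 had 107, 102 and 124 reads per 100 Atf4 reads with DMSO and 156, 137 and 116 with compound 33, with compound 33 replicate 3 inside the DMSO range. Trib3 had 8.92 to 10.4 reads per 100 Atf4 reads with DMSO and 7.62 to 11.1 with compound 33.

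**Figure D3:**
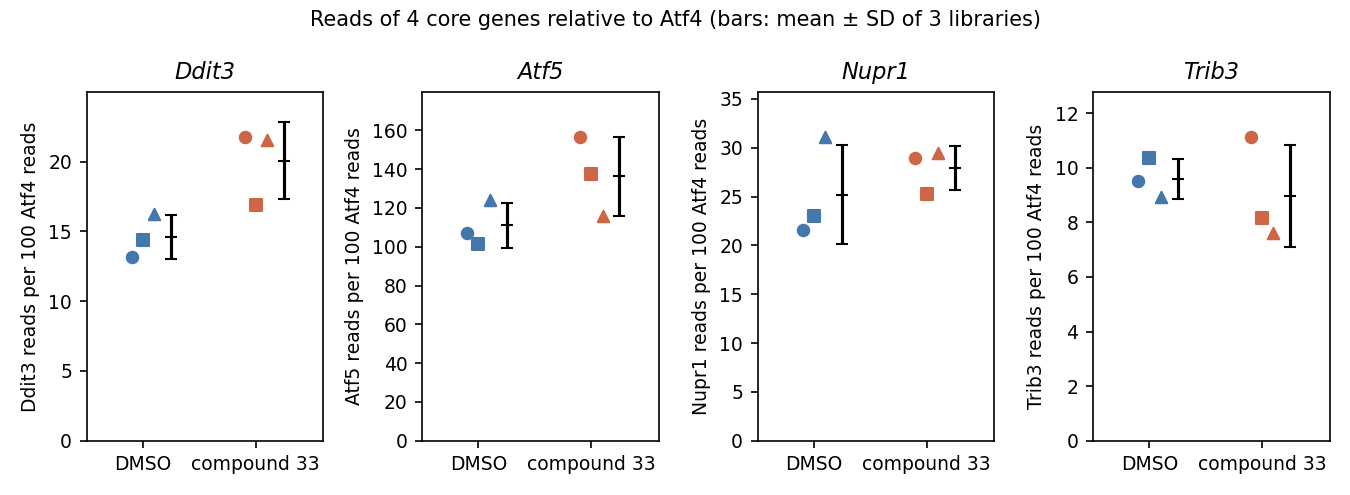
Reads of Ddit3, Atf5, Nupr1 and Trib3 per 100 reads of Atf4 in each library (points, with marker shape for the replicate number), with mean ± SD of 3 libraries as black bars. The Ddit3 points lie between 13.2 and 16.3 with DMSO and between 16.9 and 21.7 with compound 33, while the groups overlap for the other genes shown.

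ATF4 and its C/EBP partners bind a composite site, the C/EBP-ATF response element, here searched as TGATGNAA on both strands of the 300 bases from 250 before to 50 after each RefSeq gene start (GRCm38.p6). All 10 core genes matched this table, with 12 promoters, and 4 genes held the letters, beside 4.51% of all 27025 symbols in it. The 4 sites are shown because binding sites of ATF4 carry these letters. Capitals mark the match, each is written 5′ to 3′ on the strand that reads TGATG, and the positions count along the gene from its start.
Asns, 23 bases before the start, chr6:7693215-7693242, minus strand: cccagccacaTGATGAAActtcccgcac
Chac1, 193 bases before the start, chr2:119351039-119351066, minus strand: ctggcaggagTGATGCAAcggcagggaa
Nupr1, 110 bases before the start, chr7:126625563-126625590, plus strand: aagccctgtcTGATGCAAtctggccctt
Trib3, from base 15 after the start, chr2:152344029-152344056, plus strand: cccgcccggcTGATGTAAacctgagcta
These starts are those of RefSeq, and GENCODE M21 differs: its gene bodies begin upstream of the Asns and Nupr1 sites, which then lie inside the gene, and downstream of the Trib3 site, which then lies before it. In Chac1, Nupr1 and Trib3 the site lies on the strand opposite to the gene, and in Asns on the same strand. For Atf4, Atf5, Ddit3, Psat1, Phgdh and Sesn2 these letters are not in the window. The endoplasmic reticulum stress element of the ATF6 arm, a longer motif, was found in 0 core promoters and in 0.119% of all promoters.

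The 4 genes with a site had differences between 1.10-fold and 1.32-fold. On mm10 the bodies of Trib3 (chr2:152337422-152344032), Nupr1 (chr7:126623249-126630861) and Asns (chr6:7675169-7693254) lie on the minus strand and that of Chac1 (chr2:119351229-119354381) on the plus strand, with no exon shared with another annotated gene. Trib3 encodes a pseudokinase that binds ATF4 and AKT and dampens both. It stood at 74.2, 48.7 and 61.6 CPM with DMSO and at 69.7, 65.9 and 67.4 CPM with compound 33, so the compound 33 libraries fell inside the DMSO range. Its log2 fold change was 0.14 (SE 0.22, 95% interval -0.34 to 0.62, edgeR adjusted p = 0.945), with 0.0051 when DMSO replicate 2 was omitted and 0.29 when DMSO replicate 1 was.

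Nupr1, a small chromatin-binding stress protein, stood at 168, 108 and 214 CPM with DMSO and at 182, 204 and 261 CPM with compound 33. The groups overlapped, DMSO replicate 3 lying above 2 compound 33 libraries. The log2 fold change was 0.40 (SE 0.26, 95% interval -0.16 to 0.96, edgeR adjusted p = 0.834). It was 0.18 when DMSO replicate 2 was left out and 0.64 when DMSO replicate 3 was, the 2 DMSO libraries farthest apart.

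Chac1, an enzyme that breaks down glutathione and is among the more strongly induced targets of ATF4 and CHOP in many stressed cells, was the least abundant core gene. It had 64, 60 and 80 reads with DMSO and 67, 74 and 72 reads with compound 33, or 33.9, 27.1 and 27.9 CPM against 41.0, 30.7 and 37.1 CPM. DMSO replicate 1 lay above compound 33 replicate 2, so the groups overlapped. Its log2 fold change was 0.29 (SE 0.24, edgeR adjusted p = 0.890), and the upper end of its 95% interval was a 1.75-fold increase.

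Asns, asparagine synthetase, had the tightest values of the core. Its level was 93.3, 82.1 and 87.0 CPM with DMSO and 99.0, 96.6 and 98.8 CPM with compound 33. Every compound 33 library lay above every DMSO library, but the means of 87.5 ± 5.63 and 98.2 ± 1.35 CPM (SD, n = 3 each) differed by only 1.12-fold. Its log2 fold change of 0.17 (SE 0.20, 95% interval -0.26 to 0.60) had an edgeR adjusted p of 0.928.

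Psat1 and Phgdh encode enzymes of serine synthesis from a glycolytic intermediate, a branch that ATF4 controls, and both lie on the minus strand (chr19:15904678-15947337 and chr3:98313170-98339990). Psat1, the aminotransferase of that branch, stood at 502, 297 and 356 CPM with DMSO and 358, 419 and 439 CPM with compound 33. DMSO replicate 1 was the highest library of all and DMSO replicate 2 the lowest, so the groups overlapped. The log2 fold change was 0.08 (SE 0.23, edgeR adjusted p = 0.967), with -0.072 when DMSO replicate 2 was omitted and 0.31 when DMSO replicate 1 was.

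Phgdh, the first enzyme of the branch, stood at 42.4, 48.7 and 38.6 CPM with DMSO and 63.6, 64.3 and 42.2 CPM with compound 33. It was the only core gene for which DMSO replicate 2 was the highest DMSO library, and compound 33 replicate 3 lay within the DMSO range. Its log2 fold change was 0.39 (SE 0.24, edgeR adjusted p = 0.822), and 0.57 without compound 33 replicate 3. The last 300 bases of its transcripts match 13 annotated processed pseudogenes at 95% identity or more over at least 100 bases, so its count is uncertain. No such copy under another symbol was found for the other core genes. Transcripts of the same symbol were left out of this search, so it does not cover the other annotated Ddit3 gene.

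Sesn2, or sestrin 2, a sensor of leucine that restrains mTORC1 (chr4:132492032-132510501, minus strand), was the only core gene with a negative log2 fold change, at -0.03 (SE 0.28, 95% interval -0.63 to 0.56, edgeR adjusted p = 0.989). It stood at 46.7, 30.2 and 54.7 CPM with DMSO and at 44.0, 52.2 and 32.4 CPM with compound 33. The groups covered almost the same range. The sign depended on single libraries, with 0.17 without DMSO replicate 3, 0.14 without compound 33 replicate 3 and -0.23 without DMSO replicate 2.

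In the order of levels under DMSO, Atf5 came first, followed by Atf4, Psat1, Nupr1, Ddit3, Asns, Trib3, Sesn2, Phgdh and Chac1. The DMSO ranges did not overlap between the neighbours Psat1 and Nupr1, Asns and Trib3, or Phgdh and Chac1, and they overlapped between all other neighbours. Atf5 nonetheless exceeded Atf4 in 6 of 6 libraries, and Sesn2 exceeded Phgdh in 2 of 6. Among all tested genes Atf5 ranked 129 by mean level and Chac1 ranked 5180.

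DMSO replicate 2 set much of the spread within the core. It was the lowest DMSO library for 9 of 10 core genes, where it was the lowest DMSO library for 34.9% of all genes, and it was the lowest of all 6 libraries for 9 of 10 core genes, where this held for 20.3% of all genes. The mean log2 CPM over the core genes was 7.13, 6.63 and 7.06 in DMSO replicates 1, 2 and 3 and 7.20, 7.27 and 7.27 in compound 33 replicates 1, 2 and 3. On this scale DMSO replicate 2 lay 0.43 to 0.50 below the other DMSO libraries, while the compound 33 libraries lay 0.07 to 0.21 above those 2. Without DMSO replicate 2, 0 core genes lay under an unadjusted 0.05 in edgeR, and 8 of 10 had a positive log2 fold change. The shares of all genes for these counts were not computed in that fit.

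In 6 of 8 related gene lists, DMSO replicate 2 also had the lowest summed level of the DMSO libraries, by margins that varied between lists. A summed level follows the most abundant genes of its list, so it does not show that most members were lowest there. The summed levels of DMSO replicates 1, 2 and 3 were 3427, 2639 and 2863 CPM for other targets of ATF4 or CHOP, 714, 611 and 639 CPM for the bZIP partners, 621, 547 and 609 CPM for the eIF2 genes, 1716, 1645 and 1682 CPM for the tRNA synthetases and 229.6, 219.7 and 231 CPM for the paralogs. The summed ATF6 and XBP1 arm of the unfolded protein response was 8807, 8339 and 9253 CPM. In that arm Hspa5 had 3901, 2701 and 3343 CPM, lowest in replicate 2. Calr had 938, 1476 and 1432 CPM and Hsp90b1 had 205, 740 and 521 CPM, both highest in replicate 2. The exceptions were the amino acid transporters, at 458, 563 and 538 CPM with replicate 2 highest, and the serine and one-carbon enzymes, at 573, 648 and 652 CPM with replicate 2 in between. The summed fibroblast markers were 13462, 12709 and 11868 CPM, with replicate 2 in the middle. Its total of 2179455 reads also lay between those of the other DMSO libraries, and whether its cells or its preparation differed was not tested.

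**Figure D4:**
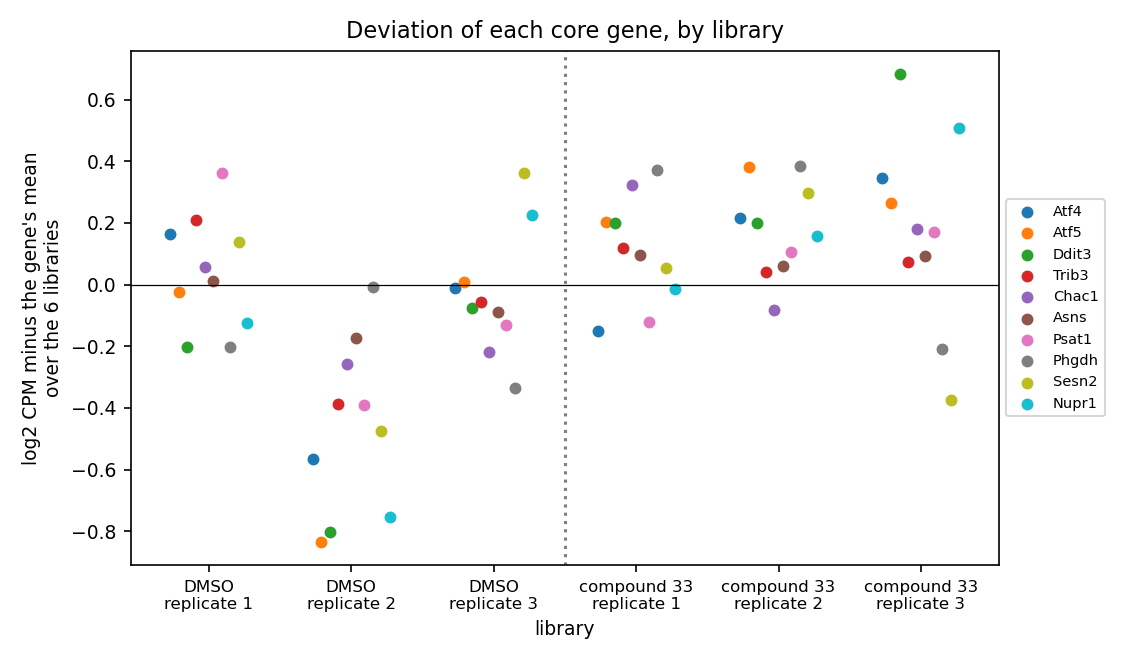
Log2 CPM of each core gene in each library minus the gene's own mean over the 6 libraries, 1 colour per gene. In DMSO replicate 2 all 10 points lie below 0, that of Phgdh by only 0.01, and in no other library do all of them lie on that side.

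Beside the core, other lists of the pathway were read from the same edgeR fit, in which 0 genes of any list passed over all genes tested. The counts of each list below stand beside 3.64% of all genes higher and 3.23% lower at an unadjusted p under 0.05, and 48.9% with a positive log2 fold change. The 9 tested amino acid transporters, which ATF4 induces to take up amino acids, were all positive (median log2 fold change 0.54). Of these, 6 lay under an unadjusted 0.05, all higher. They were the cationic amino acid carriers Slc7a3 (1.56, SE 0.34) and Slc7a1 (0.49, SE 0.22), the cystine carrier Slc7a11 (1.12, SE 0.36), the glycine carrier Slc6a9 (0.91, SE 0.24), and the neutral amino acid carriers Slc1a5 (0.81, SE 0.22) and Slc38a2 (0.48, SE 0.22), as log2 fold changes. The 2 largest rest on few reads. Slc7a3 had 14, 10 and 20 reads under DMSO and 26, 45 and 41 under compound 33. Slc7a11 had 16, 18 and 60 against 45, 74 and 49. Of 12 cytosolic tRNA synthetases 9 were positive, with a median of 0.15, and 2 lay under an unadjusted 0.05, Wars (0.92, SE 0.25) and Cars (0.67, SE 0.22). These lists were written with earlier results of the same data known, so their counts are no independent support.

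Partners and regulators of ATF4 were read in the same way. Among 7 tested bZIP partners, 5 were positive with a median of 0.30, and 1 lay under an unadjusted 0.05. That gene, Cebpa, a C/EBP factor, had 7.62 ± 2.21 CPM under DMSO and 17.1 ± 1.48 CPM under compound 33. These levels rest on only 13, 13 and 29 reads under DMSO and 30, 42 and 30 under compound 33. Its log2 fold change was 1.14 (SE 0.34, edgeR adjusted p = 0.501). The 13 tested eIF2α kinases, phosphatase subunits and eIF2B genes had a median of 0.11, with 9 positive and 0 under an unadjusted 0.05. The most abundant of them, the eIF2B subunit Eif2b2 and the phosphatase subunit Ppp1r15b, had log2 fold changes of 0.013 (SE 0.24) and 0.17 (SE 0.24). Eif2ak3, the kinase PERK of the endoplasmic reticulum, had -0.20 (SE 0.39), and Ppp1r15a, the stress-induced phosphatase subunit GADD34, had -0.17 (SE 0.26).

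Enzymes of serine, one-carbon, proline and sulfur amino acid metabolism, the group next to Psat1 and Phgdh, were split, with 5 of 10 tested members positive, a median of -0.01 and 0 under an unadjusted 0.05. Got1 and Mthfd2, the most abundant of them, had log2 fold changes of 0.20 (SE 0.21) and 0.38 (SE 0.23). Other targets of ATF4 or CHOP had 11 of 14 positive with a median of 0.14, and 3 lay under an unadjusted 0.05, all higher. These were the death receptor Tnfrsf10b (0.67, SE 0.22), a CHOP target, the lipoprotein receptor Vldlr (1.16, SE 0.38) and the secreted glycoprotein Stc2 (1.04, SE 0.43). Vldlr had only 9, 11 and 28 reads under DMSO and 26, 29 and 33 under compound 33. Stc2 had 38, 19 and 15 against 48, 42 and 41 reads, and its groups overlapped in CPM. The 19 genes of the ATF6 and XBP1 arm, chaperones and degradation factors of the endoplasmic reticulum, had a median of 0.03 with 0 under an unadjusted 0.05, and its most abundant members Hspa5 and Pdia6 had log2 fold changes of 0.29 (SE 0.22) and -0.18 (SE 0.21).

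**Figure D5:**
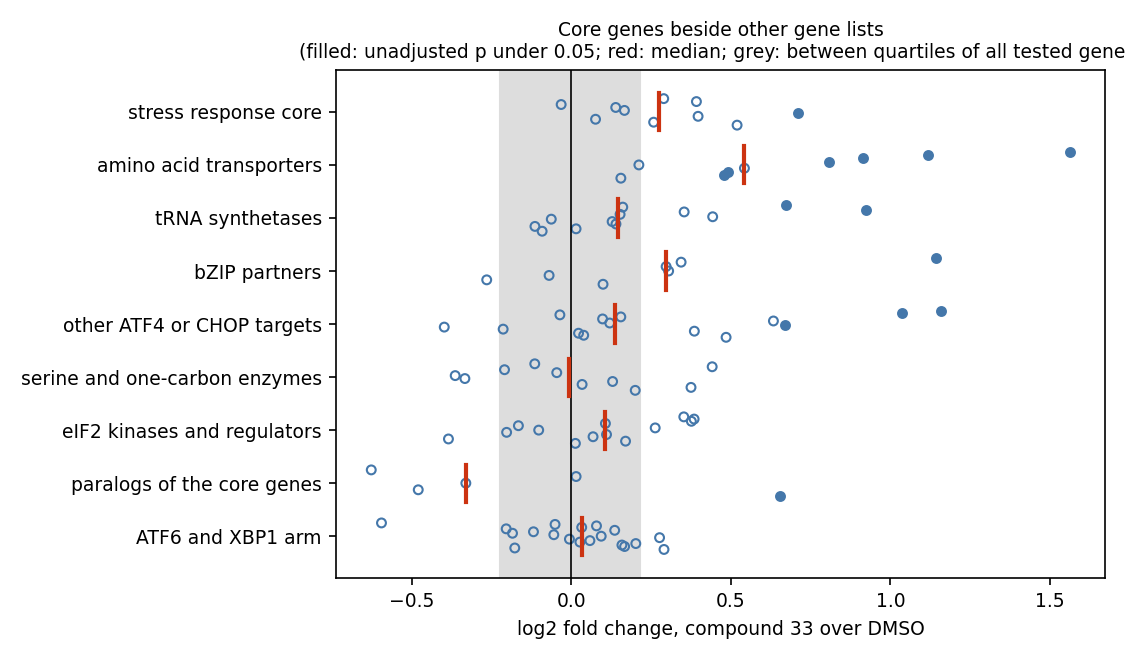
Log2 fold change of compound 33 over DMSO for every tested gene of the core and of 8 related lists, with filled points for an unadjusted p under 0.05, a red line at the median of each list and in grey the range between the quartiles of all tested genes. The transporters have a median of 0.54 and the core 0.27, while the ATF6 and XBP1 arm is centred at 0.03.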

How the data were processed

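Per the submitters' processing notes, the tools were FastQC 0.11.9, HISAT2 2.2.1, featureCounts 2.0.3 and DESeq2, with build mm10. Annotation, strand setting and multi-mapping rule: not given in the sources used here. Deposited by the authors were raw read counts by gene symbol, not normalized, for 6 QuantSeq 3′ libraries. The authors' deposited comparison holds the mean normalized count (a signal), log2 fold changes with standard errors, a Wald score and p-values.

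Counts were fitted in R 4.3.3 with edgeR 4.0.16 (filterByExpr with a minimum count of 10, TMM scaling, robust quasi-likelihood F test, group as the only term, 3 libraries per group, two-sided, Benjamini-Hochberg over 10124 genes). Standard errors are log2 fold changes over the root of F. A DESeq2 1.42.0 fit gave log2 fold changes within 0.01 of the authors' deposited values for the core genes. Limma 3.58.1 was an alternative. The script was tested on simulated data of 10124 genes. At an adjusted p under 0.05, edgeR found 0 of 66 genes with a true 1.5-fold change. It found 26.2% of 65 genes at 2-fold and 88.9% of 63 at 4-fold, with 7 false calls. A core gene that did not pass may therefore still differ by such a small amount. Coordinates come from GENCODE M21, counted from 1, and copies were searched with blastn 2.17.0. Within groups, libraries differed beyond counting noise (chi-square per degree of freedom 4.34 to 17.6).

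The core genes and the lists were chosen with earlier results of these data known. Named genes are the 10 core genes and, of each other list of pathway genes, those at an unadjusted p under 0.05 or otherwise the 2 most abundant. Marker lists were to be given as summed levels. In departure from this rule, Eif2ak3, Ppp1r15a, Mars, Trib1, Sesn3, Calr, Hsp90b1, Thy1 and the marker genes at 0 or named by reads were added after their values were seen.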

Additional observations from a re-analysis of the deposited data

How the results depend on the processing

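No core gene passed under any of the 15 alternatives, in which the smallest adjusted p of a core gene was 0.401, for Ddit3 without DMSO replicate 1, and the median of the core stayed positive, between 0.15 and 0.39. Over all genes 3 passed in the edgeR fit, 21 passed without a low-count filter, 18 in DESeq2, 7 with the replicate block, and between 1 and 7 with each library left out in turn. The count of core genes under an unadjusted 0.05 was 1 in the edgeR fit, beside 3.64% of all genes higher and 3.23% lower. It was 2 without a low-count filter, 2 in DESeq2, 2 in limma-voom and 2 with the replicate block (Ddit3 and Atf5 each time), and between 0 and 3 with each library left out. The share of all genes under that threshold was not computed for these alternatives, so a change in the count may not be particular to the core. Signs turned for Sesn2 (-0.03), to 0.011 without DMSO replicate 1, 0.17 without DMSO replicate 3 and 0.14 without compound 33 replicate 3, and for Psat1 (0.08), to -0.072 without DMSO replicate 2. Over the 6 fits that each omit a library, Sesn2 ran from -0.23 to 0.17 and Psat1 from -0.072 to 0.31. The cause was not tested. The labels do not say what a replicate number stands for, and the data did not show that it pairs libraries: deviations of same-numbered libraries had correlations of -0.03, 0.21 and 0.08 across genes, and not every library correlated best with its own number. The labels give no batch. Chac1 and Sesn2 had the lowest single counts, 60 and 63 reads in a library.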

Other observations

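Paralogs of the core genes differed in sign. Of 5 tested paralogs 2 had a positive log2 fold change, beside 48.9% of all genes. In edgeR 1 lay under an unadjusted 0.05, beside 3.64% of all genes higher and 3.23% lower. That was Trib2, a pseudokinase of the family of Trib3, at 135 ± 16.5 CPM under DMSO and 212 ± 41.8 CPM under compound 33. All its compound 33 libraries lay above all DMSO libraries, as for 6.64% of all genes. The log2 fold change of Trib2 was 0.65 (SE 0.22, edgeR adjusted p = 0.582). Trib1 stood at 22.2 ± 5.01 and 17.5 ± 2.77 CPM, and the sestrin Sesn3 at 52.2 ± 11.1 and 37.6 ± 3.28 CPM.

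For 8 of 10 core genes the coefficient of variation was higher among the DMSO libraries than among the compound 33 libraries, beside 56.0% of all genes tested. Trib3 had 20.7% with DMSO and 2.81% with compound 33, and Atf5 29.5% and 6.36%. The DMSO values include replicate 2, the lowest DMSO library for 9 of 10 core genes, beside 34.9% of all genes. Coefficients without that library were not computed, so this is no separate observation from its low levels.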
